A study of Mus musculus with 4 samples.

Results

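The replication-dependent histone genes were taken as all features whose symbol starts with Hist1h, Hist2h, Hist3h or Hist4h, which gave 67 of 32287 features. They comprise 6 genes of the linker histone family H1 and 61 core histone genes, with 18 of the H2A, 18 of the H2B, 12 of the H3 and 13 of the H4 family. Of the 67 genes, 46 had at least 30 UMIs (distinct RNA molecules counted by their molecular identifiers) in at least one sum over the cells of a class in a library and are reported, and 21 did not. The 4 single-cell RNA libraries, 1 per group, came from live nucleated cells sorted from digested mouse hearts. The deletion-labelled infarction group carried Tcf21-MerCreMer:flox and received tamoxifen and myocardial infarction, with cells taken 3 days later. The control infarction group carried Tcf21-MerCreMer and received the same tamoxifen and infarction. The deletion-labelled baseline group (Tcf21-MerCreMer:flox) and the control baseline group (Tcf21-MerCreMer) received tamoxifen without infarction. All hearts therefore shared the tamoxifen-inducible MerCreMer recombinase, whose expression is tied to Tcf21, a transcription factor gene of fibroblasts, and tamoxifen itself. Neither the floxed gene segment nor the number of animals per library is stated in the labels.

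Canonical histone genes supply the H1, H2A, H2B, H3 and H4 proteins that package newly copied DNA, and their transcripts accumulate during S phase, when DNA is replicated. Unlike other messenger RNAs, these transcripts normally end in a conserved stem-loop, bound by the stem-loop binding protein, and carry no poly(A) tail. Some of the genes can also be read through to a downstream polyadenylation signal, and the tailed transcripts do not need S phase. The library kit primed on poly(A), so the counts below are of molecules that the poly(A) primer captured, not of all histone messenger RNA.

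The stem-loop letters were looked for in the longest GENCODE coding transcript of each gene (mm10), as the conserved histone stem-loop consensus on the transcript strand, because a poly(A) primer does not capture transcripts that end at the stem-loop without a tail. They were present in 45 of 67 members and in 0.355% of 58797 coding transcripts. Of these 45 annotated transcripts, 21 ended within 60 bases of the stem-loop, 1 ended between 60 and 100 bases past it, and 23 went on for over 100 bases, 16 of them with AATAAA or ATTAAA in that stretch. The sites of 8 members described in full follow, with the 16 stem-loop letters in capitals. Hist1h2ap, Hist2h2ac and Hist1h3c are annotated with 3, 57 and 74 bases after the stem-loop. Hist1h2ae has 151, Hist1h4i 330, Hist1h4d 770, Hist1h1c 840 and Hist3h2a 1643 bases after it.
Hist1h2ap, chr13:21833029-21833044, minus strand: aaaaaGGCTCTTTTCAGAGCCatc
Hist2h2ac, chr3:96220418-96220433, minus strand: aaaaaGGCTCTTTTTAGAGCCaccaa
Hist1h3c, chr13:23745047-23745062, minus strand: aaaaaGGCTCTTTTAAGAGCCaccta
Hist1h2ae, chr13:23570668-23570683, minus strand: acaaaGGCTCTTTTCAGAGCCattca
Hist1h4i, chr13:22040966-22040981, minus strand: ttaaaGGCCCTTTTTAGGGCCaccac
Hist1h4d, chr13:23581950-23581965, plus strand: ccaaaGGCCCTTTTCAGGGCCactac
Hist1h1c, chr13:23739512-23739527, plus strand: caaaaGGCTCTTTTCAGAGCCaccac
Hist3h2a, chr11:58955172-58955187, plus strand: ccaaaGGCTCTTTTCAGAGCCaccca
The form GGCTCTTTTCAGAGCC was the most common, in 25 members, followed by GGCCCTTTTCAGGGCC in 7 and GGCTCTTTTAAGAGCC in 6. The transcripts annotated for Hist1h1b and Hist1h2bc held no match, which says only that these letters are not in the annotated sequence.

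The genes lie in 4 groups on the mm10 genome. The Hist1 group of 54 members spans chr13:21715763-23934851, 10 Hist2 members lie on chromosome 3, 2 Hist3 members on chromosome 11 and 1 Hist4 member on chromosome 6. Promoters of 61 members were matched in RefSeq (GRCm38.p6), and 4 motifs were searched in the 250 bases before the start. TATAAA was searched on the strand of the gene alone, and the others on both strands. CCAAT was present in 82.0% of the 61 promoters, against 33.8% of 32851 promoters of the same length. TATAAA was present in 39.3%, against 7.59% of all promoters. The H1 box AAACACA was present in 83.3% of the 6 H1 promoters and 14.8% of the 61, against 6.25% of all. The octamer ATTTGCAT was present in 38.9% of H2A and 40.0% of H2B promoters, against 1.60% of all. The last 120 bases before the start of Hist1h1b and Hist1h1c are shown because these H1 genes differed in their levels across the cell cycle ranges described further on. Capitals mark the CCAAT letters (ATTGG where they lie on the other strand), the TATAAA letters and the H1 box.
Hist1h1b, chr13:21780626-21780745, minus strand: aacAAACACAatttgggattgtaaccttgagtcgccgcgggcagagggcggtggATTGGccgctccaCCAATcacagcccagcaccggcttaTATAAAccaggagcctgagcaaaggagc
Hist1h1c, chr13:23738687-23738806, plus strand: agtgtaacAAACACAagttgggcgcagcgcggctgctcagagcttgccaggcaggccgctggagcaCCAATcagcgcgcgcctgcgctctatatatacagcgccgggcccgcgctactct
Both hold the H1 box and CCAAT, and TATAAA is found only in that of Hist1h1b.

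The 4 libraries held between 55710468 and 129704045 UMIs over 9149 to 11541 barcodes, and pairs of libraries shared 19 to 41 barcode sequences. After filters and doublet removal, 8289 to 10142 cells per library were kept and sorted into 28 clusters, 25 of which were named by marker genes into 12 classes. The classes are fibroblast-like, neutrophil-like and so on, and are called fibroblasts or neutrophils for short. The histone genes together took 584 UMIs per 1000000 (CPM) in the deletion-labelled infarction library, 641 in the control infarction library, 734 in the deletion-labelled baseline library and 718 in the control baseline library. Tcf21 was higher in fibroblasts of the deletion-labelled libraries. After infarction it was at 32.5 CPM in the deletion-labelled against 22.3 CPM in the control library. At baseline it was at 146 CPM in the deletion-labelled against 95 CPM in the control library. With 3' counts and the floxed part not given, this does not check the deletion. Each group is 1 library, so no test of a condition was possible. All intervals are exact 95% intervals for counting error only, and ratios compare libraries, not conditions.

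A small set of members carried most of the counts. The 13 members described in full held 88.7% of 227042 histone UMIs summed over the classes. Hist1h2bc, an H2B gene, held 20.8%, and the linker histone genes Hist1h1e and Hist1h1c held 15.9% and 15.8%. Hist1h1b, another linker histone gene, held 8.56%, and the H4 gene Hist1h4d held 7.65%. The remaining 8 held between 1.04% and 3.88% each, namely Hist1h4i, Hist3h2a, Hist1h2ap, Hist1h2ae, Hist1h4h, Hist2h2ac, Hist1h2be and Hist1h3c. Some of these counts are uncertain by sequence. Hist1h2ap had only 7.63% of its 90-base windows unique in the annotated transcripts and none in its last 200 bases, so its reads could belong to near-identical H2A copies. Hist1h1e also had no unique window in its last 200 bases. Hist1h1e and Hist1h2be overlap on the same strand, as do Hist3h2a and Trim17.

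In fibroblasts, the summed histone level was higher after infarction, and the members lay in opposite directions. It stood at 554 CPM (546 to 562) in 1379 fibroblasts of the deletion-labelled infarction library and 733 CPM (723 to 742) in 918 of the control infarction library. At baseline it stood at 495 CPM (486 to 503) in 1984 deletion-labelled fibroblasts and 483 CPM (474 to 493) in 1877 control fibroblasts. The log2 ratio of infarction over baseline was 0.16 (0.13 to 0.19) in deletion-labelled hearts, turning to -0.01 when each cell had the same weight, and 0.60 (0.57 to 0.63) in control hearts. In CPM the median gene of fibroblasts lay at -0.22 in deletion-labelled and -0.32 in control hearts for the same ratio, and with median-of-ratios scaling the histone ratios were 0.38 and 0.93. In such sums, fewer cells with a transcript and less of it per cell cannot be told apart.

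The fibroblast cells compared came from different clusters. Cluster 5, led by Cthrc1 and Tnc, held 906 and 897 of the fibroblasts of the deletion-labelled and control infarction libraries, and 8 and 7 of those of the deletion-labelled and control baseline libraries. It held 16768 of 18633 fibroblast histone UMIs in the deletion-labelled and 22018 of 22134 in the control infarction library. The remaining fibroblasts lay in clusters 15 and 17, and there the sum was lower after infarction. In cluster 15, it was 327 CPM in the deletion-labelled infarction library against 469 CPM in the deletion-labelled baseline library. In cluster 17, it was 288 CPM in the deletion-labelled infarction library against 441 CPM in the deletion-labelled baseline library. The control infarction library had only 21 fibroblasts outside cluster 5, so that comparison was made in deletion-labelled hearts alone.

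The members with the largest differences were near absent from baseline fibroblasts. Hist1h1b had 2432 UMIs in the deletion-labelled infarction library and 4131 in the control infarction library, against 261 in the deletion-labelled baseline library and 14 in the control baseline library. These are 72.3 and 137 CPM after infarction in deletion-labelled and control fibroblasts, against 9.38 and 0.682 CPM in deletion-labelled and control fibroblasts at baseline. Both infarction libraries were thus above both baseline libraries, with log2 ratios of 2.95 (2.76 to 3.14) in deletion-labelled and 7.65 (6.90 to 8.52) in control hearts. The baseline counts of the deletion-labelled library were not spread over its cells: 90.4% of them came from its 8 cells of cluster 5. Cdh5, an endothelial marker, was detected in 6 of these 8 cells and Pecam1 in 3, beside Col1a1 in 6 and Pdgfra in 5. What these cells are was not tested. Without the baseline cells of cluster 5, the Hist1h1b ratio was 6.32 in deletion-labelled and 7.64 in control hearts, and that of the sum was 0.30 and 0.60.

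The H2A gene Hist1h2ap had 719 UMIs in the deletion-labelled infarction library and 2270 in the control infarction library, against 70 in the deletion-labelled baseline library and 9 in the control baseline library. Its log2 ratios were 3.09 (2.73 to 3.46) and 7.42 (6.49 to 8.55) in deletion-labelled and control hearts, and 5.62 and 7.58 without the baseline cells of cluster 5. The H2A gene Hist1h2ae had 852 and 1576 UMIs in the deletion-labelled and control infarction libraries, against 78 and 19 in the deletion-labelled and control baseline libraries. It thus followed the same order of libraries as Hist1h1b and Hist1h2ap. Its log2 ratios were 3.18 (2.84 to 3.53) in deletion-labelled and 5.82 (5.17 to 6.55) in control hearts. Hist1h3c, an H3 gene, had 245 and 409 UMIs in the deletion-labelled and control infarction libraries, against 78 and 1 in the deletion-labelled and control baseline libraries. Of the 78 UMIs, 98.7% came from the 8 cells of cluster 5. Against a floor of 3 UMIs, the ratio in control hearts was 6.53, with an interval for the 1 UMI counted of 5.63 to 13.43. The H4 gene Hist1h4i had 746 and 675 UMIs in the deletion-labelled and control infarction libraries, against 84 and 48 in the deletion-labelled and control baseline libraries. Its ratios of 2.88 (2.55 to 3.22) and 3.26 (2.83 to 3.71) in deletion-labelled and control hearts had intervals that overlapped.

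**Figure D1:**
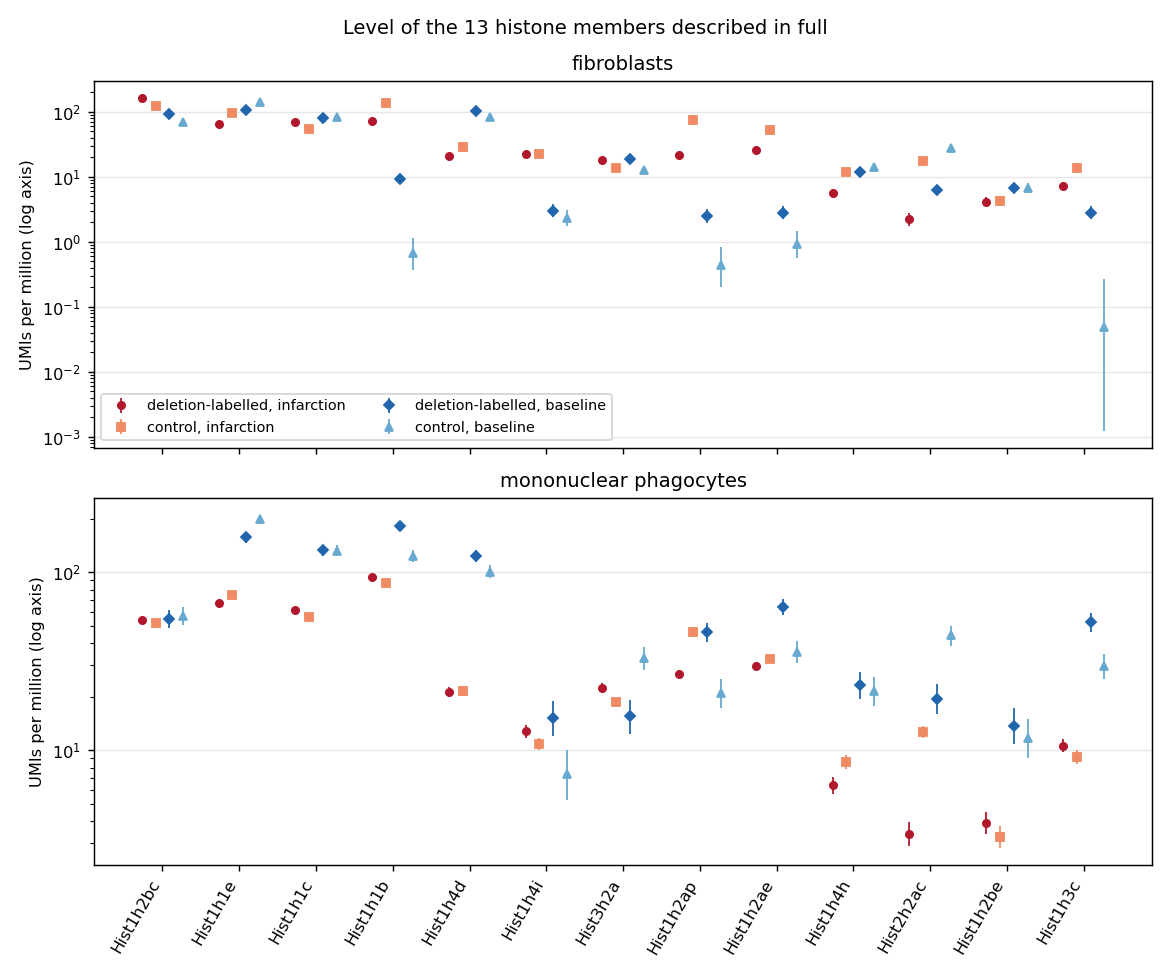
Level of the 13 histone members described in full in fibroblasts (top) and in all mononuclear phagocyte clusters summed, cluster 10 included (bottom), as CPM on a log axis, with 1 point per library and exact 95% counting intervals. In fibroblasts, Hist1h1b, Hist1h2ap, Hist1h2ae, Hist1h3c and Hist1h4i lie higher in both infarction libraries than in both baseline libraries, while Hist1h4d and Hist1h1e lie lower.

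Another set of members was present in baseline fibroblasts and was lower after infarction. Hist1h4d had 20.8 CPM in the deletion-labelled infarction library and 28.8 CPM in the control infarction library, against 104 CPM in the deletion-labelled baseline library and 83.2 CPM in the control baseline library. Both infarction libraries lay below both baseline libraries, with log2 ratios of -2.33 (-2.45 to -2.21) in deletion-labelled and -1.53 (-1.65 to -1.41) in control hearts. Another H4 gene, Hist1h4c, had 64 and 44 UMIs in the deletion-labelled and control infarction libraries, against 193 and 175 in the deletion-labelled and control baseline libraries, with ratios of -1.87 and -2.55. It was named after its values were seen, as the lowest ratio in control hearts. The linker histone gene Hist1h1e had 63.9 and 95.5 CPM in the deletion-labelled and control infarction libraries, against 107 and 141 CPM in the deletion-labelled and control baseline libraries. Its ratios were -0.74 (-0.82 to -0.66) and -0.57 (-0.64 to -0.49) in deletion-labelled and control hearts. Hist1h2be, an H2B gene, had 4.10 and 4.30 CPM in the deletion-labelled and control infarction libraries, against 6.79 and 6.82 CPM in the deletion-labelled and control baseline libraries. With median-of-ratios scaling, Hist1h1e lay at -0.52 and -0.24 and Hist1h2be at -0.51 and -0.34 in deletion-labelled and control hearts. With the same scaling, Hist1h4d lay at -2.10 and -1.21. The control difference of Hist1h1e was under 1.5-fold.

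Of the remaining members described in full, Hist1h2bc was higher after infarction in both genotypes. It had 160 and 121 CPM in the deletion-labelled and control infarction libraries, against 93.6 and 69.4 CPM in the deletion-labelled and control baseline libraries. Its ratios were 0.78 (0.71 to 0.84) and 0.80 (0.71 to 0.89) in deletion-labelled and control hearts. Hist1h1c had 69.4 and 54.3 CPM in the deletion-labelled and control infarction libraries, against 80.9 and 82.7 CPM in the deletion-labelled and control baseline libraries, a difference of 1.52-fold lower in control hearts and under 1.5-fold in deletion-labelled hearts. Hist3h2a, an H2A gene, differed by under 1.5-fold in both genotypes. It had 18.1 and 13.5 CPM in the deletion-labelled and control infarction libraries, against 18.9 and 12.7 CPM in the deletion-labelled and control baseline libraries. Hist1h4h, an H4 gene, had 5.56 and 11.9 CPM in the deletion-labelled and control infarction libraries, against 11.8 and 13.9 CPM in the deletion-labelled and control baseline libraries, and its control ratio of -0.23 turned to 0.09 with median-of-ratios scaling.

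Over the whole set, 36 of the 67 members had at least 30 UMIs in 1 of the sums compared in deletion-labelled hearts, and 36 in control hearts. In deletion-labelled fibroblasts, 19 were at least 1.5-fold higher after infarction and 8 at least 1.5-fold lower, where 19.2% of 13381 genes were higher and 32.1% lower. In control fibroblasts, 22 were higher and 7 lower, where 24.3% of 13025 genes were higher and 39.8% lower. The median log2 ratio of these members was 0.72 in deletion-labelled and 1.98 in control hearts, against -0.21 and -0.29 for all genes. A member that reached 30 UMIs only where it was high had to differ, so these counts describe the members and support nothing. Without the baseline cells of cluster 5, deletion-labelled hearts had 21 higher and 8 lower, against 19.4% and 32.0% of all genes, and control hearts had 22 higher and 7 lower, against 24.3% and 39.9%. The make-up of the fibroblast histone UMIs differed with it. H4 genes held 10.1% and 9.65% in the deletion-labelled and control infarction libraries, against 26.5% and 23.1% in the deletion-labelled and control baseline libraries. H2A genes held 14.4% and 24.1% in the deletion-labelled and control infarction libraries, against 8.11% and 11.1% in the deletion-labelled and control baseline libraries.

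Between genotypes after infarction, the summed level was lower in deletion-labelled fibroblasts, with a log2 ratio over control of -0.40 (-0.43 to -0.38), and -0.28 (-0.31 to -0.26) within cluster 5 alone. Of the members described above as higher after infarction, 4 were lower in the deletion-labelled library. Hist1h1b had a ratio of -0.92 (-0.99 to -0.85), Hist1h2ap -1.81 (-1.94 to -1.69), Hist1h2ae -1.04 (-1.17 to -0.92) and Hist1h3c -0.90 (-1.13 to -0.66). Within cluster 5 these ratios were -0.66 for Hist1h1b, -1.55 for Hist1h2ap and -0.79 for Hist1h2ae. Hist1h4i had a ratio of -0.01 (-0.16 to 0.14), and Hist1h3d, an H3 gene named after its values were seen, was higher at 0.72 (0.07 to 1.40) with 57 UMIs in deletion-labelled and 31 in control fibroblasts. Hist1h2bc lay in the other direction, at 0.41 (0.35 to 0.47) in all fibroblasts and 0.48 within cluster 5. Of 38 members with enough UMIs, 2 were at least 1.5-fold higher and 17 at least 1.5-fold lower in deletion-labelled fibroblasts, where 10.7% of 12884 genes were higher and 3.27% lower. Within cluster 5, 3 were higher and 13 lower, against 4.81% and 2.25% of all genes.

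Without infarction, the sums of deletion-labelled and control fibroblasts differed by a log2 ratio of 0.03 (-0.00 to 0.07). Of 23 members with enough UMIs, 8 were at least 1.5-fold higher and 2 at least 1.5-fold lower in deletion-labelled fibroblasts, where 7.23% of 12697 genes were higher and 5.27% lower. These counts rested on the 8 deletion-labelled cells of cluster 5: without cluster 5, 3 of 18 members were higher and 2 lower, against 6.65% and 5.36% of all genes, and the sum ratio was -0.11. Hist1h1b, with 261 UMIs in deletion-labelled and 14 in control baseline fibroblasts, had 25 and 14 outside cluster 5. Hist1h2bc was at 93.6 CPM in deletion-labelled against 69.4 CPM in control baseline fibroblasts, and Hist1h1e at 107 against 141 CPM in the same libraries.

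Fibroblasts were also sorted by genes that are not members, after thinning each cell to 2000 UMIs: cells with at least 3 UMIs of 26 S-phase genes and fewer of 25 G2/M genes, cells with the reverse, cells with no UMI of either list (called cells with neither), and cells between. In the deletion-labelled infarction library, 116 cells (8.55%) were S-phase-gene-high, 198 (14.6%) were G2/M-gene-high and 569 (42.0%) had neither. The control infarction library had 137 S-phase-gene-high cells (15.1%), 227 G2/M-gene-high cells and 261 with neither (28.8%). The deletion-labelled baseline library had 15 S-phase-gene-high and 5 G2/M-gene-high cells, and the control baseline library had 24 and 0 of 1870, which allows up to 0.197% G2/M-gene-high cells. These are ranges of a score and not cell types. In deletion-labelled infarction fibroblasts 145 cells, and in control infarction fibroblasts 130 cells, lay within 1 UMI of the limit.

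Histone levels in the ranges were given by all UMIs of the cells. In deletion-labelled infarction fibroblasts they summed to 857 CPM in S-phase-gene-high cells and 987 CPM in G2/M-gene-high cells, against 332 CPM in cells with neither. In control infarction fibroblasts they summed to 1113 CPM in S-phase-gene-high and 1097 CPM in G2/M-gene-high cells, against 302 CPM in cells with neither. The log2 ratio of S-phase-gene-high cells over cells with neither was 1.37 (1.30 to 1.43) in the deletion-labelled and 1.88 (1.81 to 1.95) in the control infarction library. In cells with neither, the level was thus slightly higher in the deletion-labelled library (322 to 343 CPM, against 289 to 316 CPM in the control library), while S-phase-gene-high cells had less in the deletion-labelled library (829 to 885 CPM, against 1085 to 1141 CPM in the control library). These cells were also deeper, with median UMIs of 36488 in S-phase-gene-high cells, 33886 in G2/M-gene-high cells and 15288 in cells with neither of the deletion-labelled infarction library, and 40259, 39409 and 25658 in the same ranges of the control infarction library. At baseline, S-phase-gene-high fibroblasts did not differ beyond the intervals from cells with neither: they had 464 against 442 CPM in the deletion-labelled library, a log2 ratio of 0.07 (-0.22 to 0.34), and 464 against 484 CPM in the control library, a ratio of -0.06 (-0.32 to 0.19).

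The members differed from each other in this order. Hist1h1b had 246 CPM in S-phase-gene-high cells against 1.10 CPM in cells with neither in the deletion-labelled infarction library, and 327 against 1.94 CPM in the control infarction library. Hist1h2ap had 67.2 against 0.641 CPM in the deletion-labelled and 162 against 1.94 CPM in the control infarction library. Both had few UMIs in cells with neither in these libraries, and so had Hist1h2ae, with log2 ratios of 4.87 in the deletion-labelled and 4.57 in the control infarction library. Hist1h3c had 1 UMI in the cells with neither in the deletion-labelled and 0 in the control infarction library, where its level in S-phase-gene-high cells was at least 44.9-fold higher than a floor of 3 UMIs. Hist2h2ac, an H2A gene, had a ratio of 2.77 (2.21 to 3.37) in the control infarction library, the only one with enough of its UMIs. A middle group had smaller ratios. Hist1h1e had 1.40 and 1.84, Hist1h4d 1.29 and 2.38, Hist1h4h 1.29 and 2.05, Hist1h4i 1.57 and 0.60 and Hist1h2be 0.80 and 1.09 in the deletion-labelled and control infarction libraries.

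Another 3 of the members described in full had the opposite order, with less in S-phase-gene-high cells than in cells with neither. Outside these, Hist2h3c1 had 2 against 35 UMIs in the deletion-labelled infarction library. Its log2 ratio against the floor of 3 UMIs was -2.22 (-5.91 to -0.84). Hist1h2bc had 95.1 against 156 CPM in the deletion-labelled infarction library and 69.9 against 141 CPM in the control infarction library, log2 ratios of -0.71 (-0.87 to -0.56) and -1.01 (-1.19 to -0.84). Hist1h1c had ratios of -0.53 (-0.78 to -0.30) and -0.48 (-0.76 to -0.21), and Hist3h2a of -1.19 (-1.74 to -0.67) and -1.49 (-2.12 to -0.90) in the deletion-labelled and control infarction libraries. In G2/M-gene-high cells over cells with neither, Hist1h1c lay at 0.83 and 0.76 in these libraries, so it was lowest in the S-phase-gene-high cells. Hist1h4i was likewise higher in G2/M-gene-high than in S-phase-gene-high cells, with 51.2 against 25.2 CPM in the deletion-labelled and 33.8 against 20.1 CPM in the control infarction library. The annotated transcripts of Hist1h1c and Hist3h2a run on for 840 and 1643 bases past the stem-loop, and that of Hist1h2bc held no match. Those of Hist1h4d, Hist1h1e and Hist1h2be run on for 770, 1153 and 1861 bases, and these 3 members had S-phase-gene-high ratios above 0. Hist1h2ap ends 3 bases after it, and Hist1h1b held no match. A link between the annotated ends and the order was not tested.

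**Figure D2:**
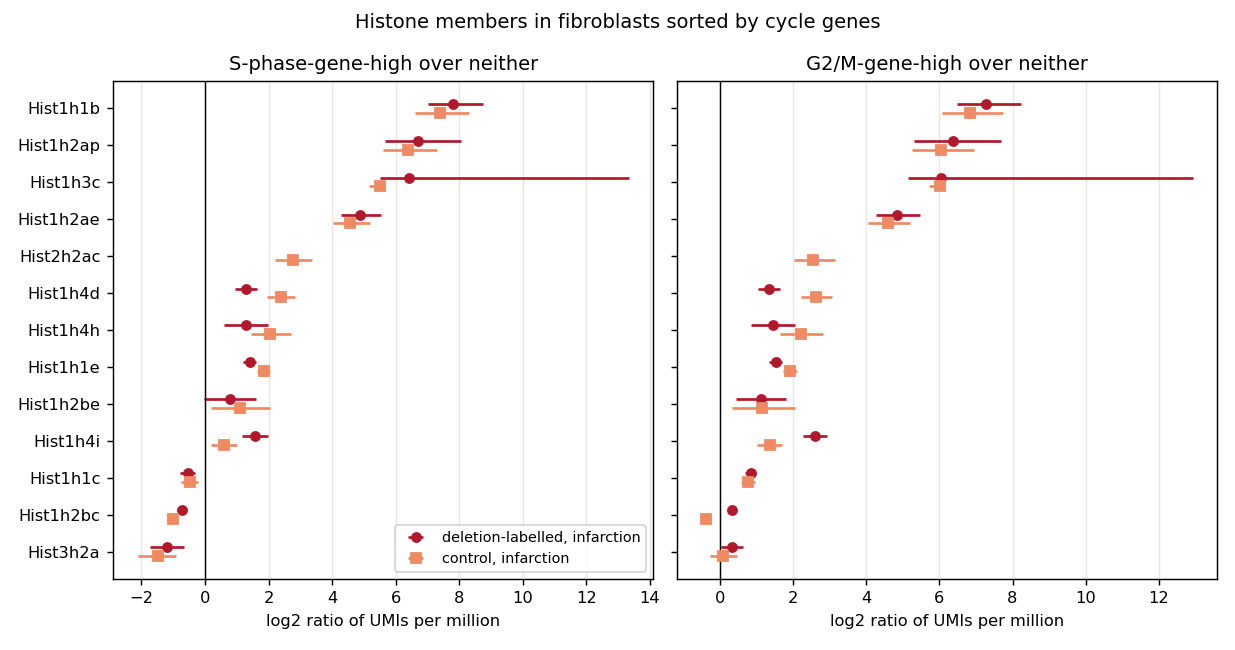
Levels of the histone members described in full in infarction fibroblasts sorted by S-phase and G2/M genes, as log2 ratios over cells with neither, with exact 95% counting intervals. Hist1h1b, Hist1h2ap, Hist1h3c and Hist1h2ae stand far above 0, while Hist1h2bc, Hist1h1c and Hist3h2a lie below 0 in S-phase-gene-high cells in both libraries.

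The spread over cells differed in the same way. The 10 cells with the most Hist1h1b held 51.1% of its fibroblast UMIs in the deletion-labelled and 38.4% in the control infarction library, while for Hist1h2bc the 10 highest cells held 8.44% and 8.96% in these libraries. After thinning, 2.51% of deletion-labelled and 6.95% of control infarction fibroblasts had a Hist1h1b UMI, against 0.303% and 0.214% of deletion-labelled and control baseline fibroblasts. Without thinning these were 10.9% and 21.1% in the deletion-labelled and control infarction libraries, and 1.21% and 0.746% in the deletion-labelled and control baseline libraries. For comparison, in neutrophils, which as mature cells do not divide, 0.616% and 1.39% had a Hist1h1b UMI in the deletion-labelled and control infarction libraries after thinning. Free RNA, doublets and misnamed cells can each give such UMIs, and their part was not tested. Their median depth was 2262 and 2157 UMIs, against 20086 and 31978 UMIs in fibroblasts of the deletion-labelled and control infarction libraries. Endothelial cells had 0.262% and 0.294% in the deletion-labelled and control baseline libraries, at median depths of 5150 and 3641 UMIs (13529 and 10628 UMIs in fibroblasts of the same libraries), so no expression is read from the baseline fibroblast shares. For Hist1h2bc, 21.7% and 19.1% of fibroblasts had a UMI after thinning in the deletion-labelled and control infarction libraries, against 15.6% and 10.3% in the deletion-labelled and control baseline libraries.

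Outside the fibroblasts, cluster 10 was led by genes of dividing cells. Its leading genes include Hist1h3c, Hist1h1b, Hist1h2ae and Hist1h2ap beside Top2a and Nusap1. By its markers it was grouped with the mononuclear phagocytes, but its cells differed between libraries. The phagocyte gene Csf1r was detected in 52.9% of 138 deletion-labelled and 67.7% of 130 control infarction cells, against 9.38% of 32 deletion-labelled and 22.7% of 22 control baseline cells. The endothelial gene Pecam1 was detected in 29.7% and 17.7% of the deletion-labelled and control infarction cells, against 93.8% and 68.2% of the deletion-labelled and control baseline cells. The cluster therefore held markers of several cell types. Doublets and free RNA can also give such UMIs, and what these cells are was not tested. The histone genes were not kept out of the clustering and lead this cluster, so its histone level is given as a description only. It had 3901 and 4714 CPM in the deletion-labelled and control infarction libraries, and 8603 and 11634 CPM in the deletion-labelled and control baseline libraries. This cluster held between 52.2% and 66.0% of the histone UMIs of the phagocyte class in each library.

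**Figure D3:**
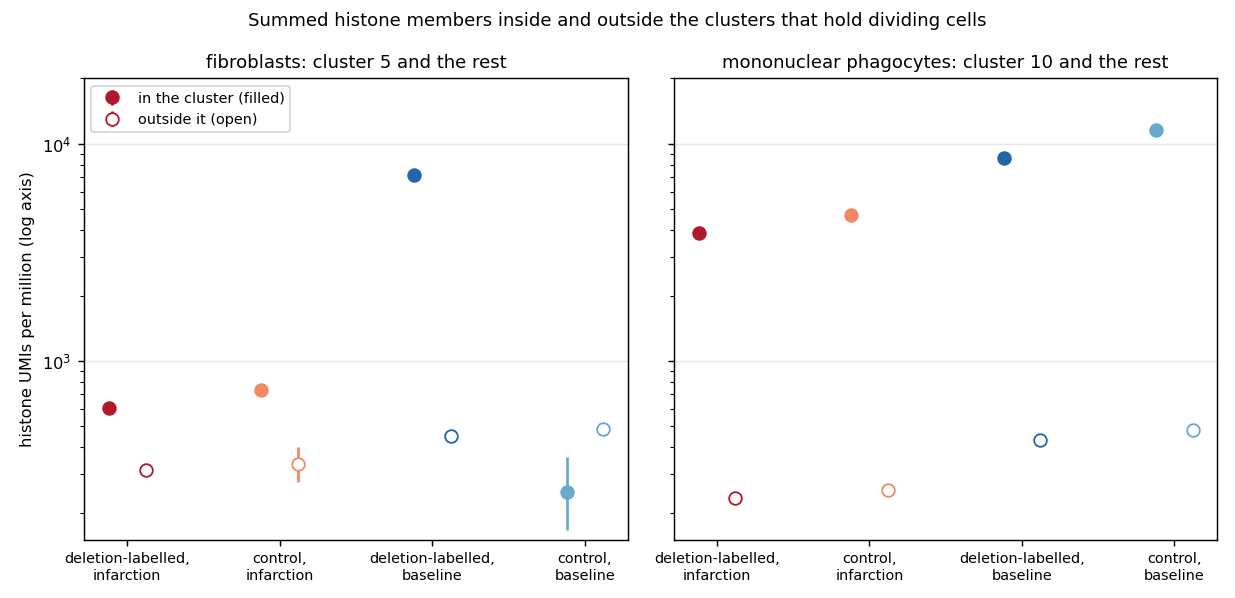
Summed histone level in CPM on a log axis inside (filled) and outside (open) cluster 5 of the fibroblasts (left) and cluster 10 of the phagocyte class (right), with 1 point per library and exact 95% counting intervals. Cluster 10 stands at 3901 to 11634 CPM, far above the cells outside it, and the 8 deletion-labelled baseline cells of cluster 5 stand at 7147 CPM.

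Phagocytes are given by cluster number, since cluster 24 had Lyve1, a marker of the lymphatic endothelial list, and no phagocyte marker among its 10 leading genes. Infarction cells lay mainly in clusters 1 and 2, and baseline cells in cluster 24. Cluster 1 had 188 CPM (183 to 193) in the deletion-labelled and 191 CPM (186 to 196) in the control infarction library, and cluster 2 had 289 CPM (281 to 298) and 313 CPM (306 to 321) in the same libraries. Cluster 24 had 410 CPM (392 to 429) in the deletion-labelled and 466 CPM (448 to 485) in the control baseline library. Every one of these infarction values was below the baseline values, but they are of different clusters. Summed over all phagocyte clusters but cluster 10, the level was 233 and 255 CPM in the deletion-labelled and control infarction libraries, against 430 and 478 CPM in the deletion-labelled and control baseline libraries. The log2 ratios were -0.88 (-0.95 to -0.81) in deletion-labelled and -0.91 (-0.97 to -0.85) in control hearts. The class itself depended on the clustering: with each library clustered alone, the ratio of the whole class was -0.49 in deletion-labelled and -0.07 in control hearts. With cluster 10 the levels were 490 and 503 CPM in the deletion-labelled and control infarction libraries, against 1151 and 1007 CPM in the deletion-labelled and control baseline libraries.

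Outside cluster 10, Hist1h4d was lower after infarction in phagocytes of both genotypes, with 8.71 and 9.29 CPM in the deletion-labelled and control infarction libraries, against 58.3 and 53.0 CPM in the deletion-labelled and control baseline libraries. Hist1h2ap lay in the other direction, with 186 and 548 UMIs in the deletion-labelled and control infarction libraries, against 11 and 7 in the deletion-labelled and control baseline libraries, and log2 ratios of 0.87 (-0.01 to 1.89) and 2.89 (1.84 to 4.22). Hist1h1e had 33.0 and 41.1 CPM in the deletion-labelled and control infarction libraries, against 81.8 and 108 CPM in the deletion-labelled and control baseline libraries. Hist1h1c had 52.5 and 48.2 CPM in the deletion-labelled and control infarction libraries, against 102 and 102 CPM in the deletion-labelled and control baseline libraries. Unlike in fibroblasts, Hist1h2bc did not differ by more than its intervals, with ratios of -0.05 (-0.24 to 0.13) and -0.03 (-0.21 to 0.16). Of 28 members with enough UMIs in deletion-labelled hearts, 4 were at least 1.5-fold higher and 18 lower, where 19.1% and 32.4% of all genes were. Of 32 in control hearts, 7 were higher and 17 lower, where 20% and 39.1% of all genes were. With cluster 10 included, the counts were 0 higher and 35 lower of 42 in deletion-labelled hearts (17.6% and 34.3% of all genes), and 2 higher and 31 lower of 44 in control hearts (19.0% and 39.7%).

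Between genotypes after infarction, phagocyte sums differed by log2 ratios of -0.02 (-0.08 to 0.03) in cluster 1 and -0.12 (-0.17 to -0.06) in cluster 2, deletion-labelled over control. Hist1h2ap was lower in the deletion-labelled library in both, with 2.82 against 5.83 CPM in cluster 1 and 6.75 against 15.9 CPM in cluster 2. Over all phagocyte clusters but cluster 10, 1 of 32 members was at least 1.5-fold higher and 6 lower after infarction, where 5.87% and 2.19% of all genes were. At baseline 2 of 15 were higher and 3 lower, where 6% and 6.08% of all genes were. With cluster 10 included, 4 of 45 members were at least 1.5-fold higher and 3 lower after infarction, where 7.64% and 1.89% of all genes were, and 13 of 29 were higher and 3 lower at baseline, where 8.32% and 5.24% of all genes were. In cluster 24 the sum ratio at baseline was -0.19 (-0.27 to -0.10).

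Neutrophils had the highest summed level of the 7 classes compared after infarction. It was 1516 CPM (1489 to 1542) in 3393 deletion-labelled and 1686 CPM (1658 to 1714) in 3487 control infarction cells, and 1509 CPM (1398 to 1626) in 109 deletion-labelled baseline cells. The control baseline library had 36 neutrophils and was not compared. Hist1h2bc took the largest part, with 646 and 674 CPM in the deletion-labelled and control infarction libraries and 637 CPM in the deletion-labelled baseline library. Hist1h1c had 412 and 378 CPM in the deletion-labelled and control infarction libraries and 420 CPM in the deletion-labelled baseline library. Both were thus close in all 3 libraries. Hist1h4i differed, with 213 and 313 CPM in the deletion-labelled and control infarction libraries, against 57.1 CPM in the deletion-labelled baseline library. Hist1h1b was at 5.63, 6.83 and 4.39 CPM in the deletion-labelled infarction, control infarction and deletion-labelled baseline libraries. In cluster 16, which holds most baseline neutrophils, the sum was 1372 CPM in the deletion-labelled infarction against 1472 CPM in the deletion-labelled baseline library, a ratio of -0.10 (-0.23 to 0.02). Of 15 members with enough UMIs, 4 were at least 1.5-fold higher and 5 lower after infarction in deletion-labelled neutrophils, where 29% and 18.4% of all genes were. Between genotypes after infarction, 0 of 17 were higher and 3 lower in deletion-labelled neutrophils, where 4.65% and 5.29% of all genes were.

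Lymphocytes had mainly H1 counts. In B cells, H1 genes held between 57.6% and 69.3% of the histone UMIs in each library, and in T and NK cells between 55.3% and 68.1%. The sum in B cells was 710 CPM (666 to 755) in the deletion-labelled and 948 CPM (899 to 999) in the control infarction library, against 1541 CPM (1451 to 1636) in the deletion-labelled and 2293 CPM (2210 to 2377) in the control baseline library. Both infarction libraries were below both baseline libraries, and within each treatment the deletion-labelled library was lower. Hist1h1e alone had 211 and 319 CPM in the deletion-labelled and control infarction libraries, against 533 and 844 CPM in the deletion-labelled and control baseline libraries. After infarction, 0 of 8 members with enough UMIs were at least 1.5-fold higher and 6 lower in deletion-labelled B cells, where 9.65% and 12.3% of all genes were, and 0 of 16 were higher and 10 lower in control B cells, where 8.16% and 24.6% of all genes were. Between genotypes, deletion-labelled B cells had 0 of 11 members higher and 4 lower after infarction, where 3.76% and 4.32% of all genes were, and 1 of 15 higher and 6 lower at baseline, where 4.92% and 14.5% of all genes were. Hist1h2bc, the most abundant member in neutrophils, had 49.7 and 33.7 CPM in B cells of the deletion-labelled and control infarction libraries, and 61.5 and 32.2 CPM in those of the deletion-labelled and control baseline libraries. Its level in T and NK cells was 12.3 and 9.18 CPM in the deletion-labelled and control infarction libraries, and 4.61 and 19.6 CPM in the deletion-labelled and control baseline libraries.

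Endothelial clusters are also given by number, since cluster 19 had Kit of the mast cell list and no endothelial marker among its 10 leading genes. Cluster 12, led by Vwf and Plvap, held enough cells in all 4 libraries. Its sum was 499 CPM (475 to 523) in the deletion-labelled and 387 CPM (360 to 416) in the control infarction library, against 769 CPM (717 to 823) in the deletion-labelled and 767 CPM (721 to 815) in the control baseline library. Hist1h4d in this cluster had 67 and 40 UMIs in the deletion-labelled and control infarction libraries, against 130 and 141 UMIs in the deletion-labelled and control baseline libraries, with log2 ratios in CPM of -2.58 in deletion-labelled and -2.37 in control hearts. At baseline, Hist1h2bc was higher in the deletion-labelled library in each of the 5 endothelial clusters. In cluster 18 it was 507 against 296 CPM, in cluster 19 185 against 102 CPM, in cluster 20 290 against 170 CPM, in cluster 21 270 against 149 CPM and in cluster 12 185 against 139 CPM, deletion-labelled against control. Hist1h1e had the opposite order in all 5, for instance 153 CPM in deletion-labelled against 215 CPM in control cells of cluster 19. Mural cells, the pericytes and smooth muscle cells, had 401 and 435 CPM in the deletion-labelled and control infarction libraries, against 739 and 842 CPM in the deletion-labelled and control baseline libraries.

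**Figure D4:**
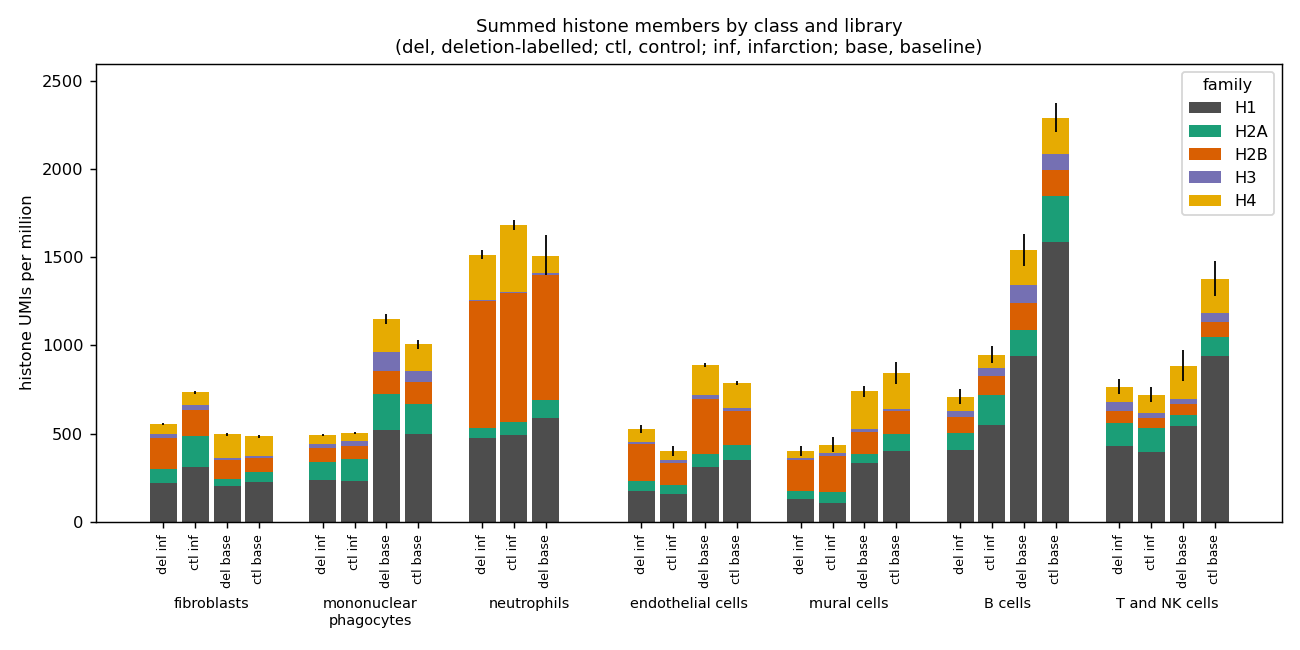
Summed histone level in CPM by family (H1, H2A, H2B, H3 and H4, stacked) for 7 classes, with 1 bar per library (del, deletion-labelled; ctl, control; inf, infarction; base, baseline) and exact 95% counting intervals of the sum. Neutrophils carry the tallest H2B part, lymphocytes mainly H1, and the H4 part of fibroblasts is smaller in the infarction libraries than at baseline.

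Across classes, 4 of the members described in full had lower CPM after infarction in each class compared, which are 7 in deletion-labelled and 6 in control hearts, sharing the libraries. They are Hist1h1e, Hist1h1c, Hist1h4d and Hist1h2be, counted by the direction of the CPM alone. Not each of these differences exceeded its counting interval: in deletion-labelled neutrophils Hist1h1c was at -0.03 (-0.24 to 0.19) and Hist1h2be at -0.26 (-0.81 to 0.33), and Hist1h1c in deletion-labelled fibroblasts, at -0.22, was at -0.00 with median-of-ratios scaling. Hist1h4h was lower in 6 of 7 classes in deletion-labelled and in 6 of 6 in control hearts, with neutrophils as the exception. The share of all genes with such a direction over the classes was not computed. The median gene was itself lower after infarction in all these comparisons but neutrophils, at -0.32 to -0.04, against 0.13 in neutrophils. Phagocytes include cluster 10 here, and the 4 members were also lower without it. The endothelial class sum of control hearts changed direction under some alternatives given further on. For Hist1h4d the log2 ratios ran from -3.10 in mural cells to -1.09 in neutrophils in deletion-labelled hearts, and from -3.03 in mural cells to -1.05 in T and NK cells in control hearts. In mural cells it was at 17.5 and 19.0 CPM in the deletion-labelled and control infarction libraries, against 150 and 155 CPM in the deletion-labelled and control baseline libraries.

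By direction of the CPM, Hist2h2ac differed between the genotypes in nearly every class. In fibroblasts it had 75 UMIs in the deletion-labelled infarction library against 521 in the control infarction library, and 176 in the deletion-labelled baseline library against 572 in the control baseline library. The log2 ratios of deletion-labelled over control were -2.95 (-3.32 to -2.60) after infarction and -2.14 (-2.39 to -1.89) at baseline, and -2.78 within cluster 5 and -2.37 without cluster 5. It was lower in the deletion-labelled library in 6 of 7 classes after infarction and in 6 of 6 at baseline. By direction of the CPM alone, Hist1h1e had the same counts, with mural cells as its exception after infarction. Hist1h2ap was lower in 6 of 7 classes after infarction and higher in 5 of 6 at baseline. This baseline count includes B cells at 31.5 against 31.4 CPM and endothelial cells at a ratio of 0.20 (-0.66 to 1.11). In fibroblasts, 82.9% of its deletion-labelled baseline UMIs came from 8 cells of cluster 5. Phagocytes outside cluster 10 had 11 against 7 UMIs of it at baseline. The share of all genes with such directions was not computed. In mural cells Hist2h2ac had 2.18 against 14.8 CPM after infarction and 6.89 against 48.5 CPM at baseline, deletion-labelled against control. In B cells it had 3.55 against 17.5 CPM after infarction and 17.2 against 77.0 CPM at baseline, deletion-labelled against control. Phagocytes outside cluster 10 had 1.86 against 5.63 CPM after infarction and 6.23 against 21.0 CPM at baseline, deletion-labelled against control. Neutrophils after infarction were the exception, with 8.38 CPM in the deletion-labelled and 5.86 CPM in the control library. All classes of a library come from the same hearts, so these are not independent replicates of the genotype.

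**Figure D5:**
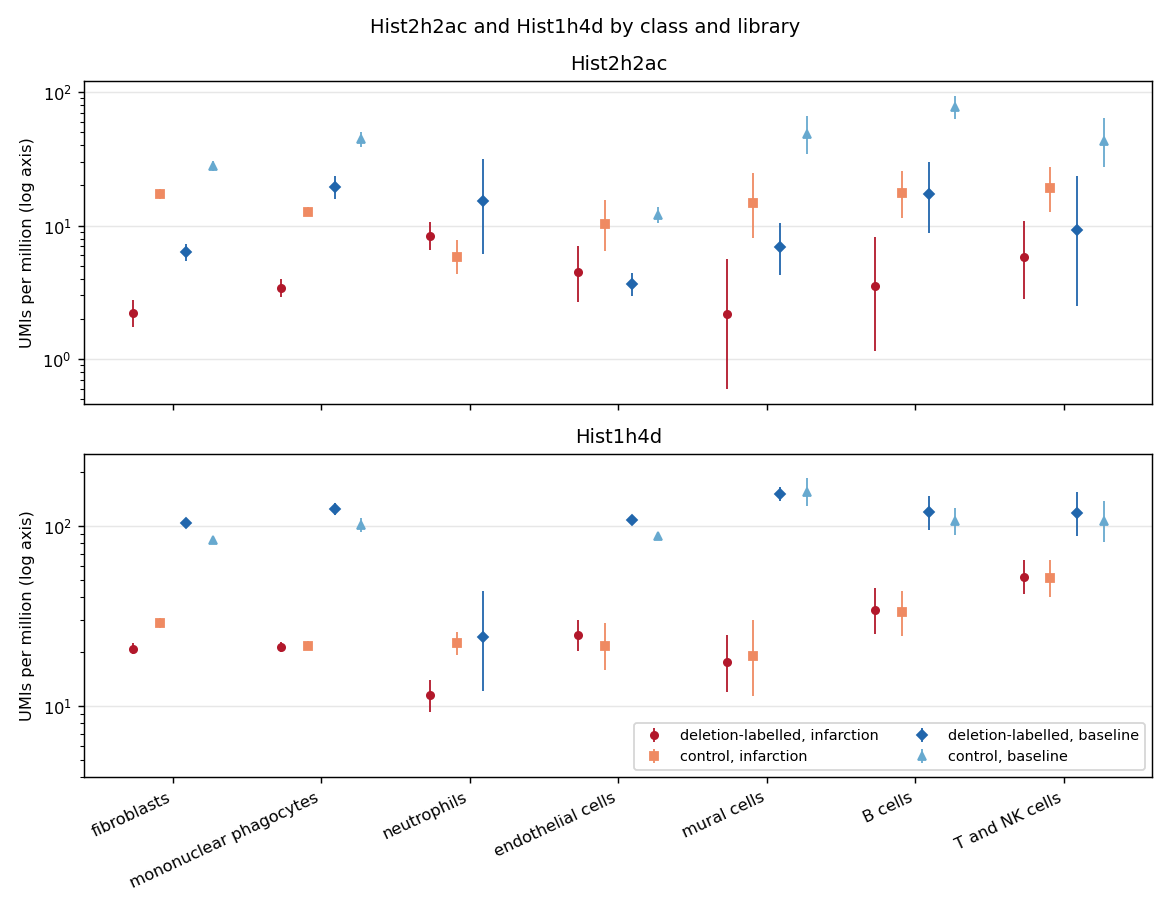
Hist2h2ac (top) and Hist1h4d (bottom) by class and library, as CPM on a log axis with exact 95% counting intervals, with cluster 10 included in the phagocytes. Hist2h2ac lies lower in deletion-labelled than in control cells in every class but neutrophils after infarction, and Hist1h4d lies lower after infarction than at baseline in every class with both.

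The genes that serve the histone genes were read in fibroblasts. The S-phase and G2/M lists, which sorted the cells, had 25 of 26 and 25 of 25 genes at least 1.5-fold higher after infarction in both genotypes, with none lower. Uhrf1 and Dtl, which act at replicating DNA, were among the highest, with Uhrf1 at 30.4 and 40.8 CPM in the deletion-labelled and control infarction libraries, against 1.01 and 0.634 CPM in the deletion-labelled and control baseline libraries. Pcna, the sliding clamp of DNA polymerase, was among the lowest, with 94.3 and 113 CPM in the deletion-labelled and control infarction libraries, against 41.6 and 39.8 CPM in the deletion-labelled and control baseline libraries. Among 16 measured genes of histone transcription, 3' end processing and decay, 4 were at least 1.5-fold higher and 0 lower in deletion-labelled hearts, and 4 higher and 2 lower in control hearts. Over all genes, 19.2% were higher and 32.1% lower in deletion-labelled hearts, and 24.3% higher and 39.8% lower in control hearts, so the share that was higher was near that of all genes. Lsm11, a subunit of the U7 particle that cuts histone transcripts, had 11.4 and 13.5 CPM in the deletion-labelled and control infarction libraries, against 6.07 and 6.87 CPM in the deletion-labelled and control baseline libraries. Eri1, an exonuclease that trims the stem-loop end, had 37.2 and 44.1 CPM in the deletion-labelled and control infarction libraries, against 23.3 and 30.1 CPM in the deletion-labelled and control baseline libraries. Slbp, which encodes the stem-loop binding protein and was named for that role after its values were seen, had 48.2 and 53.9 CPM in the deletion-labelled and control infarction libraries, against 37.1 and 38.9 CPM in the deletion-labelled and control baseline libraries. Npat, the coactivator of histone transcription, was among the lowest, with 15.2 and 15.3 CPM in the deletion-labelled and control infarction libraries, against 16.8 and 27.3 CPM in the deletion-labelled and control baseline libraries. The list had median log2 ratios of 0.19 in deletion-labelled and 0.35 in control hearts, against -0.21 and -0.29 for all genes.

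Of 15 genes of histone chaperones and of acetylation at assembly, 8 were at least 1.5-fold higher and 0 lower in deletion-labelled hearts, and 8 higher and 1 lower in control hearts. Among all genes, 19.2% were higher and 32.1% lower in deletion-labelled hearts, and 24.3% higher and 39.8% lower in control hearts. Asf1b, a chaperone of newly made H3 and H4, had 12.6 and 19.6 CPM in the deletion-labelled and control infarction libraries, against 0.683 and 0.439 CPM in the deletion-labelled and control baseline libraries. Chaf1b, a subunit of the replication-coupled assembly factor CAF-1, had 9.63 and 13.9 CPM in the deletion-labelled and control infarction libraries, against 0.611 and 0.975 CPM in the deletion-labelled and control baseline libraries. Atrx, a remodeler that works with replication-independent deposition, was the lowest, with 184 and 163 CPM in the deletion-labelled and control infarction libraries, against 262 and 336 CPM in the deletion-labelled and control baseline libraries. Of 11 replication-independent histone genes, 5 were at least 1.5-fold higher in deletion-labelled and 8 in control hearts, with none lower. The shares over all genes are those just given. Cenpa, the centromeric H3 gene, had 112 and 146 CPM in the deletion-labelled and control infarction libraries, against 7.18 and 3.36 CPM in the deletion-labelled and control baseline libraries. H2afz, an H2A variant gene, had 921 and 1245 CPM in the deletion-labelled and control infarction libraries, against 173 and 118 CPM in the deletion-labelled and control baseline libraries. H1f0, the linker histone gene of resting cells, stayed within 1.5-fold, with 101 and 103 CPM in the deletion-labelled and control infarction libraries, against 114 and 81.4 CPM in the deletion-labelled and control baseline libraries.

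Between genotypes after infarction, the same lists had few genes past 1.5-fold in fibroblasts, except those of the cell cycle. None of the 16 processing genes and none of the 11 replication-independent histone genes was past 1.5-fold, and 1 of 15 chaperone genes was lower in the deletion-labelled library. Of the 25 G2/M genes 14 were lower, and of the 26 S-phase genes 5, with medians of -0.61 and -0.47. Over all 12884 genes compared, 10.7% were at least 1.5-fold higher and 3.27% lower in the deletion-labelled library. Exo1 and Mcm6 had the lowest S-phase ratios, with 4.52 against 8.34 CPM for Exo1 and 32.1 against 57.5 CPM for Mcm6, deletion-labelled against control.

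The members at the edge of the reporting limit had low counts throughout. Just inside were Hist1h2ai, Hist1h2bl and Hist2h3b, whose highest class sums were 39, 35 and 34 UMIs, and just outside were Hist1h4j, Hist2h2ab and Hist1h2bf with 28, 25 and 25. Of the 21 members below the limit, Hist1h2ba and Hist1h2bq had 0 UMIs in all libraries.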

How the data were processed

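The data are single-cell RNA counts of 4 libraries made with the 10x 3' v3.1 kit, with 16000 cells loaded to recover 10000, per the labels' protocols. The authors deposited raw UMI counts for each gene and barcode. Cell Ranger 5.0.1 and the build mm10 are named in the submitters' processing notes. Whether the deposited barcodes had been cleared of free RNA is not given in the sources used here.

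Barcodes were dropped below 500 UMIs, below 200 genes or above 20% mitochondrial UMIs. Doublets were removed as the top share of a simulated-pair score at 0.8% per 1000 barcodes, which took 655 to 1032 barcodes per library. Cells of all libraries were clustered together (2000 variable genes, 30 components, 20 neighbours, resolution 1.0) with scanpy 1.11.5 and igraph 0.11.9 in Python 3.11.15, with numpy 2.4.6, scipy 1.17.1, pandas 2.3.3 and matplotlib 3.10.9. Clusters were named by markers, needing at least 3 detected. Class names are therefore rebuilt, and differences from the study may come from them. Classes with at least 50 cells in both libraries were compared.

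UMIs were summed per class and library and given per 1000000 UMIs of the class (CPM). A ratio raised counts under 3 UMIs to a floor of 3. Members with at least 30 UMIs in 1 of the sums were counted as higher or lower at 1.5-fold. Intervals are exact Poisson for counts and levels, and Clopper-Pearson for shares. Those of ratios are Clopper-Pearson, conditional on the sum of both counts. With 1 library per group no test and no p-value was possible. The ratio code was tested on simulated data. Described in full were the 12 reported members with the most UMIs and the highest of each family. From the other lists, the 2 highest and 2 lowest genes per comparison could be named. The members and lists were chosen with earlier results of these data known. Alternatives covered doublets, the mitochondrial limit, clustering, scaling, thinning, floors and thresholds.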

Additional observations from a re-analysis of the deposited data

Results flagged for a closer look

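In fibroblasts, 5 members were at least 1.5-fold lower in deletion-labelled than in control cells after infarction and at least 1.5-fold higher at baseline, with both intervals apart from 0. Smaller differences also pointed opposite ways, such as Hist1h4d at -0.47 after infarction and 0.33 at baseline. Hist1h1b was at -0.92 after infarction and 3.78 at baseline, Hist1h2ap at -1.81 and 2.52, and Hist1h1d, a linker histone gene, at -0.73 and 1.46. Hist1h2ae was at -1.04 after infarction and 1.60 at baseline, and Hist1h3c at -0.90 and 4.26. With 1 library per group, the difference between these effects was not tested. Most of the deletion-labelled baseline UMIs of Hist1h1b (90.4%), Hist1h2ap (82.9%), Hist1h2ae (67.9%) and Hist1h3c (98.7%) came from 8 cells of cluster 5. Cdh5 UMIs were also found in 6 of these cells. Outside cluster 5 at baseline, Hist1h1b had 25 UMIs (0.904 CPM) in deletion-labelled and 14 (0.686 CPM) in control fibroblasts. Hist1h2ap had 12 and 8 UMIs (0.434 and 0.392 CPM) in these libraries, and Hist1h2ae had 25 and 18 (0.904 and 0.882 CPM). Hist1h3c had 1 UMI in each. The cause of the difference between infarction and baseline was not tested.

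In the phagocyte class with cluster 10 included, Hist1h2ap was lower in deletion-labelled than in control cells after infarction (-0.79) and higher at baseline (1.12). For the same gene, infarction over baseline was -0.78 in deletion-labelled and 1.14 in control hearts. These differences were not tested either. Without cluster 10, whose baseline cells mostly carried endothelial genes, infarction over baseline for Hist1h2ap was 0.87 in deletion-labelled and 2.89 in control hearts.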

How the results depend on the processing

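No paired analysis was possible because there is a single library for every group, and for the same reason no replicate could be left out. The alternatives that leave out or isolate clusters 5 and 10 were chosen after seeing the data. Values are log2 ratios unless said otherwise, and the cause of a difference between settings was not tested. In fibroblasts the ratio of the sums for infarction over baseline in deletion-labelled hearts (0.16) was 0.29 with each library clustered alone, 0.23 with members and cycle lists left out of clustering, 0.38 with median-of-ratios scaling, -0.01 as a mean of CPM per cell, -0.03 without Hist1h2bc and 0.30 without the baseline cells of cluster 5. In control hearts (0.60) it was 0.52 with no doublet removal, 0.56 with each library clustered alone and also without Hist1h2bc, 0.93 with median-of-ratios scaling and 0.37 as a mean of CPM per cell. For deletion-labelled over control after infarction (-0.40) it was -0.37 with no doublet removal, with a mitochondrial limit of 10% and with each library clustered alone, -0.44 with median-of-ratios scaling, -0.64 without Hist1h2bc and -0.28 in cluster 5 alone. At baseline (0.03) it was -0.02 with no doublet removal, -0.10 with each library clustered alone, -0.05 with the lists left out and also without Hist1h2bc, -0.01 as a mean of CPM per cell and -0.11 without cluster 5, so its direction was not settled.

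In phagocytes, infarction over baseline was lower under every alternative run for both genotypes. In deletion-labelled hearts (-1.23) the ratio was -1.16 with no doublet removal, -0.48 with a mitochondrial limit of 10%, -0.49 with each library clustered alone, -0.73 with the lists left out, -1.03 with median-of-ratios scaling, -1.08 as a mean of CPM per cell, -1.33 without Hist1h2bc and -0.88 without cluster 10. In control hearts the values in the same order of settings were -0.90, -0.50, -0.07, -0.68, -0.65, -0.82, -1.07 and -0.91. For deletion-labelled over control after infarction (-0.04) the ratio was -0.12 with a mitochondrial limit of 10%, -0.09 with each library clustered alone, -0.15 with median-of-ratios scaling, -0.11 as a mean of CPM per cell and -0.13 without cluster 10. At baseline (0.19) it was -0.14 with a mitochondrial limit of 10%, 0.34 with each library clustered alone, 0.01 with the lists left out and -0.16 without cluster 10. The endothelial class sum for infarction over baseline in control hearts turned to 0.09 with a mitochondrial limit of 10%, 0.10 with each library clustered alone and 0.02 with the lists left out.

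In the infarction libraries, the ratio of S-phase-gene-high cells over cells with neither stayed above 0 under every alternative run. At baseline it was 0.07 and -0.06 in deletion-labelled and control fibroblasts and 1.96 and -0.36 in deletion-labelled and control phagocytes, where no alternative was run. In deletion-labelled fibroblasts (1.37) it was 1.23 after thinning to 5000 UMIs, 1.68 with at least 5 list UMIs, 1.29 with no doublet removal and 2.11 without Hist1h2bc. In control fibroblasts (1.88) it was 2.33 with at least 5 list UMIs, 1.75 with no doublet removal and 2.69 without Hist1h2bc. In deletion-labelled phagocytes (1.26) it was 0.86 after thinning to 5000 UMIs, 1.80 with at least 5 list UMIs, 1.84 with no doublet removal, 1.57 without Hist1h2bc and 0.31 without cluster 10. In control phagocytes (2.01) the values in the same order were 1.13, 2.73, 1.84, 2.34 and 0.74. With cluster 10 included, histone levels of phagocytes were higher in G2/M-gene-high than in S-phase-gene-high cells in every library. They were 2882 against 514 CPM in the deletion-labelled and 2874 against 939 CPM in the control infarction library. At baseline they were 7689 against 1670 CPM in the deletion-labelled and 11562 against 384 CPM in the control library.

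Of 831 recomputed values of single members, 18 turned the direction of a reported difference of at least 1.5-fold. The sign also turned for 26 values beyond and 26 within the counting interval of a reported difference under 1.5-fold. The 18 are as follows. In fibroblasts at baseline, deletion-labelled over control was -0.02 for Hist1h2ap, -0.04 for Hist1h2ae and -0.43 for Hist1h3c with each library clustered alone, and -0.44 for Hist1h3c without cluster 5. In deletion-labelled phagocytes, infarction over baseline for Hist1h1b was 0.39 with a mitochondrial limit of 10%, 0.37 with each library clustered alone and 0.55 without cluster 10. In the same order of settings it was 0.77, 0.73 and 0.87 for Hist1h2ap and 0.58, 0.57 and 0.16 for Hist1h2ae. With the lists left out it was 0.40 for Hist1h2ap and 0.05 for Hist1h2ae, and without cluster 10 it was 0.59 for Hist1h3c. In control phagocytes Hist1h3c was 3.74 with each library clustered alone and 0.77 without cluster 10.

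Of 128 recomputed counts of members, 44 differed from the reported count by over 1.5 times. In control fibroblasts after infarction 38 members were higher with at least 10 UMIs (22 reported), and 3 were lower at 2-fold or with median-of-ratios scaling (7 reported). In deletion-labelled fibroblasts 5 were lower under either of those (8 reported). For deletion-labelled over control after infarction 29 were lower with at least 10 UMIs and 8 at 2-fold (17 reported). At baseline 16 were higher with at least 10 UMIs, 5 at 2-fold and 3 with each library clustered alone (8 reported). In phagocytes, members lower after infarction numbered 18 to 23 in deletion-labelled hearts (35 reported) and 11 to 20 in control hearts (31 reported) with cluster 10 or the lists left out, the mitochondrial limit of 10% or each library clustered alone. Members with few UMIs in a class are limited by depth, which the counting intervals show, and the spread between animals is not measured here.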
